A study of Mus musculus with 6 samples.

Results

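The genes described here are 10 genes of the major histocompatibility complex (MHC) class I pathway in mouse B cells: the heavy chain genes H2-K1, H2-D1, H2-Q7 and H2-T23, the light chain gene B2m, the peptide transporter genes Tap1 and Tap2, the loading factor gene Tapbp, the peptide-trimming gene Erap1 and the regulator gene Nlrc5. They were picked by symbol, with earlier results of these data known. Each had 1 value per library among the 24346 symbols in the files, and all 10 were among the 10122 genes tested. The cells were follicular B cells, the recirculating mature B cells of the spleen, taken from mice 8 weeks old by a sort for B220 and CD23 with no CD93 and little CD21. One group of 3 libraries came from B6 control mice, called WT, and the other group of 3 from mice homozygous for G9gl, a heavy and light chain knock-in that encodes the germline form of an anti-DNA antibody from a person with lupus. The study made the comparison to learn about the anergic state of the G9gl B cells, in which a self-reactive cell persists but responds weakly. Whether each library stands for its own animal or a pool is not in the labels, nor is the genetic background of the knock-in. The spread behind every p-value is therefore that of these 6 libraries and may be technical.

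MHC class I molecules show peptides from inside the cell to CD8 T cells and to natural killer cells. Proteasomes cut proteins into peptides, the TAP transporter carries these into the endoplasmic reticulum, tapasin and other chaperones help to load them, and the trimmed peptide, the heavy chain and beta-2 microglobulin leave for the surface together. In lymphocytes the class I genes are switched on by NLRC5, which acts through a promoter module of X and Y boxes, and by interferons, which act through response elements bound by IRF factors.

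RefSeq promoter windows (GRCm38.p6, from 250 bases before to 50 after a start) were matched for 8 of the 10 genes, and those of Tap2 and Nlrc5 were not. Windows were searched on both strands for TGACG, the core of the X2 box and of cyclic AMP response elements, for the Y box CCAAT, for a pair of GAAA with any 2 bases between them, the core of an interferon-stimulated response element, and for a kappa B core, GGGANTTCC. In 4 windows, those of H2-K1, H2-D1, H2-Q7 and B2m, TGACG was followed 24 or 25 bases on by ATTGG, which is the Y box on the opposite strand. These stretches are shown because 3 of the 4 member heavy chain genes on chromosome 17 share this pair with B2m on chromosome 2, while the window of H2-T23 held a Y box and no TGACG. The X2 core and the Y box are in capitals, 5′ to 3′ on the gene's strand.
H2-K1, chr17:34000359-34000388, minus strand: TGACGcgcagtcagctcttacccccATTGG
H2-D1, chr17:35262993-35263022, plus strand: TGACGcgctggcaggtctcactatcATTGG
H2-Q7, chr17:35439091-35439119, plus strand: TGACGtgtaacagttctcacccctATTGG
B2m, chr2:122147609-122147638, plus strand: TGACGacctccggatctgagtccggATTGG

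The spacing was 25 bases in H2-K1, H2-D1 and B2m and 24 bases in H2-Q7. The X2 core began at position -64 from the start in H2-Q7, -78 in B2m, -101 in H2-D1 and, for the 2 RefSeq starts of H2-K1, at -41 or -55. A pair with this spacing was in 22 of 27025 windows, 0.0814% of them; the spacing was read from the members' own windows, so the count is a description. TGACG alone was in 21.0% of all windows and in 5 of the 8 matched members, CCAAT in 37.9% and in 7 of 8. The H2-D1 stretch lies inside a longer GENCODE model of that gene.

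The interferon element core was in 3 of the 8 windows against 3.49% of all windows. It is shown with 10 bases on either side, for the members that hold it, with its GAAA repeats (TTTC on the opposite strand) in capitals.
B2m, chr2:122147538-122147567, plus strand: ataagaacatGAAActGAAAatgggaaagt
H2-T23, chr17:36032806-36032835, minus strand: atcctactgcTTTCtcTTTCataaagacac
Erap1, chr13:74639839-74639868, plus strand: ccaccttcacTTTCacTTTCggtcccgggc

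The H2-T23 and Erap1 stretches lie inside the GENCODE models of those genes. B2m was the member whose window held both the X2 and Y pair and the interferon core. The kappa B core was in 0 of the 8 windows and in 1.69% of all. Matches to these short letters are no evidence of binding, and a window without a match says nothing of a factor's part in that gene.

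**Figure D1:**
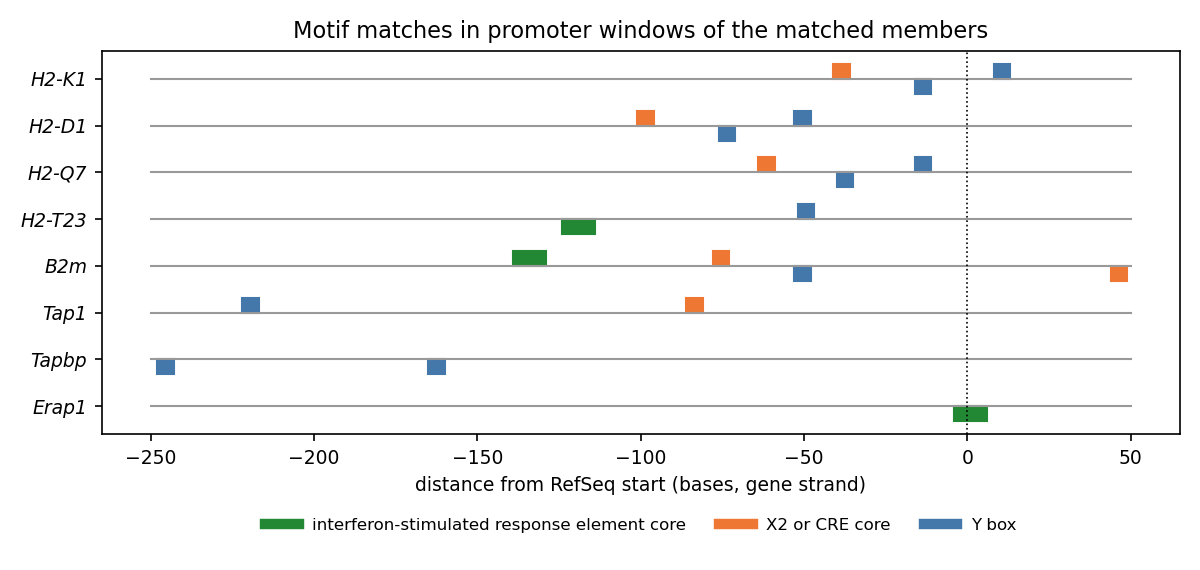
Motif matches in the promoter windows of the 8 matched members, by distance in bases from the RefSeq start (dotted line), for the outer of the 2 starts of H2-K1. Blocks above a line match on the gene's strand and blocks below it on the opposite strand, and in H2-K1, H2-D1, H2-Q7 and B2m an X2 core is followed by a Y box on the opposite strand 24 or 25 bases on.

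Values are in FPKM, a count of fragments divided by transcript length and by the library's mapped fragments, so levels are per length and can be set side by side between genes. Their sums were 603054 to 611557 in the WT and 657759 to 671533 in the G9gl libraries, with immunoglobulin genes not analysed here. Depth was estimated from the step that single fragments leave in low values, at 10200000 to 11960000 fragments per library, so that 10 FPKM in a 2 kb transcript rested on about 204 to 239 fragments. B cell markers summed to 8299 to 8607 FPKM in WT and 7551 to 7946 in G9gl over 8 genes. Of these, 1 was called higher (Cd22) and 5 lower, Cr2 2.13-fold and Ms4a1 1.34-fold among them. Cr2 and Fcer2a encode CD21 and CD23, on which the cells were sorted, so they are not markers independent of the sort. In all, 7 T cell markers summed to 2.66 to 6.57 FPKM over all libraries. Macrophage markers were higher in G9gl: over 12 genes they summed to 22.6 to 30.6 FPKM in WT and 59.3 to 66.4 in G9gl, 9 of 11 tested were called higher, and none was at 0 in every library. Natural killer cell markers, 6 genes, summed to 3.21 to 5.68 FPKM in WT and 9.34 to 13.1 in G9gl, with 3 of 3 tested called higher. Of these 3, Klrd1 reached 1 FPKM only in the G9gl libraries, which alone brought it into the test. Prf1 held the largest part of the rise, with means of 1.73 FPKM in WT and 6.44 in G9gl. Of the markers not tested, Ncr1 and Gzma had lower means in G9gl and Klrb1c a higher one, all with overlapping libraries. Neutrophil markers, 5 genes, summed to 2.27 to 8.11 and 12.8 to 29.1 FPKM, with S100a8 higher 4.23-fold. Red cell markers, 5 genes, summed to 41.5 to 43.4 and 60.2 to 219.8 FPKM, with 0 of 1 tested called. Plasma cell markers, 6 genes, summed to 127.7 to 142.4 and 143.2 to 152.5 FPKM, with Jchain higher 4.58-fold, Sdc1 higher 1.85-fold and Irf4 lower. Xbp1 was the largest part of these sums, with means of 95.9 FPKM in WT and 105 in G9gl. Dendritic cell markers, 8 genes, summed to 311.9 to 328.5 and 301.7 to 312.9 FPKM, with 5 under 1 FPKM in all libraries. Nearly all of each sum was Ccr7, with means of 316 FPKM in WT and 304 in G9gl. The sums thus say little about the other dendritic cell markers. Zbtb46 was called higher, but it reached 1 FPKM only in the G9gl libraries, which alone brought it into the test. The part of these other cell types in the class I result was not tested.

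Class I expression was higher in G9gl follicular B cells. Of the 10 genes, 8 rose, 0 fell, and Tap2 and Erap1 did not pass (limma on log2(FPKM + 1), Benjamini-Hochberg adjusted p under 0.05 over all genes tested). Of all genes tested, 23.4% were called, with 11.8% called higher and 11.6% lower. The members and the lists below were chosen with earlier results of these data known, so their counts beside these shares are a description. When any 1 library was left out, 7.93% to 10.8% of all genes were called higher, and the same 8 members. The median log2 fold change of the 10 genes was 0.66, against -0.0022 over all genes tested. In 9 of the 10 genes all G9gl libraries lay above all WT libraries, a pattern found in 20.3% of tested genes. In bulk samples a difference in the make-up of the cells and one in RNA per cell cannot be told apart.

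**Figure D2:**
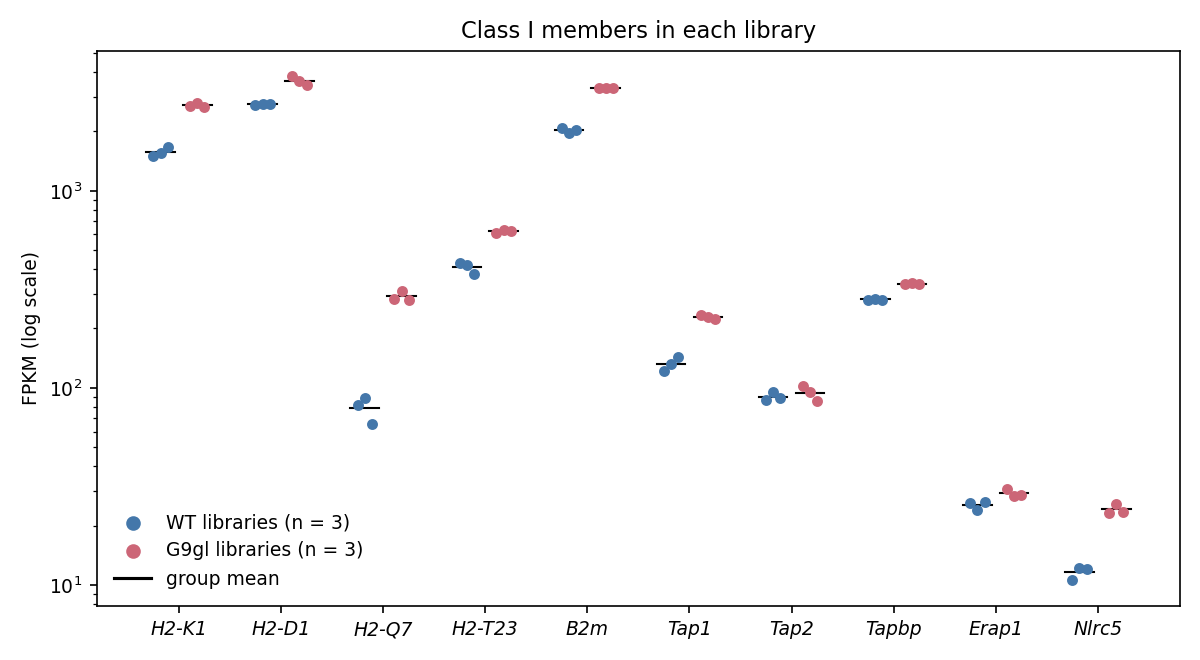
FPKM of the 10 genes (log axis) in each of the 3 WT and 3 G9gl libraries, with group means as bars. The groups overlap in Tap2, with 86.5 to 94.9 FPKM in WT and 86.1 to 102 in G9gl, and in no other gene shown.

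H2-K1 encodes one of the classical heavy chains, which present peptides to CD8 T cells. It lies on chromosome 17 at 33996017 to 34000347 (GENCODE vM21, GRCm38, the assembly that mm10 denotes). Its level was 1498, 1549 and 1669 FPKM in WT replicates 1 to 3 and 2703, 2800.5 and 2659 FPKM in G9gl replicates 1 to 3. Every G9gl library was above every WT library by a wide margin. Means were 1572 ± 87.5 FPKM in WT and 2721 ± 72.4 FPKM in G9gl (here and below ± SD over 3 libraries), a 1.73-fold rise. The log2 fold change, given here and below with its SE, was 0.79 ± 0.053 (limma, adjusted p 1.6e-05).

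H2-D1, the other classical heavy chain gene of B6 mice (chromosome 17, 35262730 to 35267499), was the most abundant of the 10 in both groups. Its WT libraries held 2727, 2760.45 and 2746 FPKM and its G9gl libraries 3825, 3588 and 3422 FPKM. The WT values were tight and the G9gl values spread more, with no overlap. Means of 2744 ± 16.8 and 3612 ± 202 FPKM gave a 1.31-fold rise (log2 fold change 0.39 ± 0.052, limma adjusted p 0.00069). This call rested on the scaling of the libraries: the log2 fold change was 0.26 with values rescaled so that every library has the same sum (TPM, adjusted p 0.0033) and 0.11 after quantile normalization (adjusted p 0.13).

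The ratio of the classical heavy chains, which no scaling of a whole library can change, separated the libraries of the groups without passing the test. H2-K1 stood at 0.549, 0.561 and 0.608 of the H2-D1 level in WT and at 0.707, 0.780 and 0.777 in G9gl. All G9gl ratios were above all WT ratios, 1.32-fold on average (two-sided exact permutation p 0.1, the smallest that 3 against 3 libraries allow). Adjusted over the 12 ratios computed, this permutation p was 0.15, so the ratio did not pass.

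H2-Q7 belongs to the Qa-2 family of nonclassical class I molecules, which are expressed on mature lymphocytes. It lies at 35439155 to 35443773 on chromosome 17 and changed most of the 10 genes. Its FPKM was 82.2, 88.3 and 65.6 in WT and 284, 308 and 279.8 in G9gl. The lowest G9gl library was more than 3 times the highest WT library. Means of 78.7 ± 11.7 and 291 ± 15.5 FPKM gave a 3.68-fold rise (log2 fold change 1.88 ± 0.099, limma adjusted p 3.3e-06).

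H2-Q7 has near copies whose fragments the counting could split, so its own value is uncertain. Of its annotated words of 100 bases, 11.98% were found in another gene's transcripts, against 0.96% for H2-K1, 3.59% for H2-D1 and 3.15% for H2-T23. That share leaves out H2-Q8 and H2-Q9, which GENCODE vM21 does not list under these symbols. Among the copies H2-Q8 rose 2.38-fold and H2-Q9 1.85-fold, while H2-Q6 varied from 0.50 to 53.7 FPKM among the G9gl libraries alone and did not pass (adjusted p 0.34). Summed over H2-Q6, H2-Q7, H2-Q8 and H2-Q9, the level was 355, 394 and 413 FPKM in WT and 902, 899 and 962 in G9gl. The sum rose 2.38-fold in the means, with the G9gl libraries all above the WT libraries; it was formed after the single values were seen. A sum of FPKM still depends on how fragments were divided among copies of unequal length, and H2-Q7 shared more words with H2-Q10 and with H2-Q5, which are not in it, than with H2-Q6.

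H2-T23 encodes Qa-1, a nonclassical molecule that shows leader peptides of other class I chains to receptors of natural killer and T cells. It lies at 36029773 to 36032855 on chromosome 17, and an antisense gene, A930015D03Rik, covers its whole span at 3.86 FPKM in WT and 5.27 in G9gl, in libraries that keep no strand. H2-T23 had 429.8, 418 and 379.7 FPKM in WT and 608, 630.5 and 627 in G9gl. The libraries did not overlap, and the means of 409 ± 26.2 and 622 ± 12 FPKM gave a 1.52-fold rise (log2 fold change 0.60 ± 0.056, limma adjusted p 9.5e-05).

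B2m, the light chain shared by all these molecules, lies on chromosome 2 at 122147686 to 122153083. It had 2083, 1956 and 2029 FPKM in WT and 3309, 3325 and 3334 in G9gl. The G9gl libraries agreed closely, and all were above WT. The rise was 1.64-fold, with means of 2023 ± 63.8 and 3323 ± 12.5 FPKM (log2 fold change 0.72 ± 0.045, limma adjusted p 1e-05). The gene Patl2 overlaps B2m on the other strand and was listed at 0 FPKM in WT.

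Set against B2m in the same library, the heavy chains took different directions, though no ratio passed. H2-K1 stood at 0.778 ± 0.053 of B2m in WT and 0.819 ± 0.022 in G9gl, with overlapping libraries (exact permutation p 0.3). H2-D1 stood at 1.36 ± 0.051 of B2m in WT and 1.09 ± 0.065 in G9gl, with every G9gl library below every WT library (exact permutation p 0.1). H2-Q7 went the other way, from 0.0390 ± 0.0064 to 0.0875 ± 0.0047 of B2m (exact permutation p 0.1). H2-T23 did not separate the groups, with 0.202 ± 0.014 and 0.187 ± 0.0030 (exact permutation p 0.3). Over the 12 ratios computed, the adjusted p was 0.15 for the 8 ratios whose libraries did not overlap, so none can pass at this sample size.

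Of the peptide transporter genes, Tap1 was called higher and Tap2 did not pass. TAP1 and TAP2 form a heterodimer, and their genes are neighbours on chromosome 17, Tap1 at 34187553 to 34197225 and Tap2 at 34203527 to 34216321. Tap1 had 122, 132 and 143 FPKM in WT and 233, 229 and 223 in G9gl, with no overlap. Its means were 132 ± 10.3 and 228 ± 5.34 FPKM, a 1.72-fold rise (log2 fold change 0.79 ± 0.063, limma adjusted p 4.5e-05). Tap2 had 86.5, 94.9 and 89.1 FPKM in WT and 102, 94.8 and 86.1 in G9gl. These ranges overlapped, and with means of 90.2 ± 4.28 and 94.4 ± 8.17 FPKM Tap2 did not pass (log2 fold change 0.064 ± 0.072, adjusted p 0.57). On the TPM scale its log2 fold change was -0.068.

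The ratio of Tap1 to Tap2 was 1.41, 1.39 and 1.60 in WT and 2.28, 2.42 and 2.59 in G9gl. It was 1.65-fold higher on average, with no overlap (exact permutation p 0.1, adjusted over the 12 ratios 0.15), and did not pass. This ratio was computed after the values of both genes were seen. Psmb9, an immunoproteasome subunit gene, runs away from Tap1 on the other strand, with RefSeq starts 225 bases apart, and GENCODE models that overlap by 212 bases. Psmb9 rose 1.71-fold, from 217 ± 13.1 to 372 ± 28.2 FPKM. The ratio of Tap1 to Psmb9 was 0.613 ± 0.083 in WT and 0.615 ± 0.033 in G9gl.

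Tapbp encodes tapasin, which bridges TAP and the empty class I molecule (chromosome 17, 33915899 to 33929292). It had 280.6, 282 and 280.1 FPKM in WT and 335, 340.4 and 338 in G9gl. Both groups were tight, and the difference, though small, was many times the spread. Means of 281 ± 1.07 and 338 ± 2.75 FPKM gave a 1.2-fold rise (log2 fold change 0.26 ± 0.044, limma adjusted p 0.0024). With values rescaled to TPM the log2 fold change was 0.13 (adjusted p 0.047). Its model overlaps Zbtb22 on the same strand over 3422 bases, a gene with 12.8 FPKM in WT and 11.2 in G9gl.

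Erap1 encodes the aminopeptidase that trims peptides in the endoplasmic reticulum (chromosome 13, 74639568 to 74693201). It had 26.1, 24.1 and 26.2 FPKM in WT and 30.7, 28.1 and 28.5 in G9gl. The libraries did not overlap, but the difference of 0.19 ± 0.071 on the log2 scale missed the threshold (adjusted p 0.09), and on the TPM scale it was 0.058. The last 834 bases of its model overlap Cast on the other strand, which had 37.9 FPKM in WT and 33.9 in G9gl.

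Nlrc5, the class I transactivator gene, lies on chromosome 8 at 94434356 to 94527272 and was the least abundant of the 10. It had 10.5, 12.2 and 12.1 FPKM in WT and 23.3, 25.8 and 23.4 in G9gl. The lowest G9gl value was well above the highest WT value. With means of 11.6 ± 0.948 and 24.1 ± 1.39 FPKM the rise was 1.995-fold (log2 fold change 0.996 ± 0.086, limma adjusted p 6.6e-05), and its ratio to B2m was 1.27-fold higher in G9gl with no overlap (exact permutation p 0.1).

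In order of level, WT cells held H2-D1, B2m, H2-K1, H2-T23, Tapbp, Tap1, Tap2, H2-Q7, Erap1 and Nlrc5. Tap2 and H2-Q7 were the neighbours in this order whose WT libraries overlapped. In G9gl the order was the same except that H2-Q7 stood above Tap1 and Tap2.

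Across the library the classical genes sat among transcripts that were mostly higher in G9gl. Of the 83 tested genes with a mean of at least 1000 FPKM, which include H2-K1, H2-D1 and B2m, 58 (69.9%) were called higher and the median log2 fold change was 0.29. H2-D1, at 0.39, was near that median and H2-K1 and B2m, at 0.79 and 0.72, were above it. A log2 fold change at least as large as that of H2-K1 was found in 2.51% of all tested genes. Rescaling to TPM lowered the median of all genes by 0.12 on the log2 scale, to -0.12, and changed the split from 1191 higher and 1174 lower to 763 higher (7.22%) and 2495 lower (23.6%), 30.8% in all, while 8 of the 10 genes were called higher in both cases. After quantile normalization 10.2% of all genes and 7 of the 10 were called higher.

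**Figure D3:**
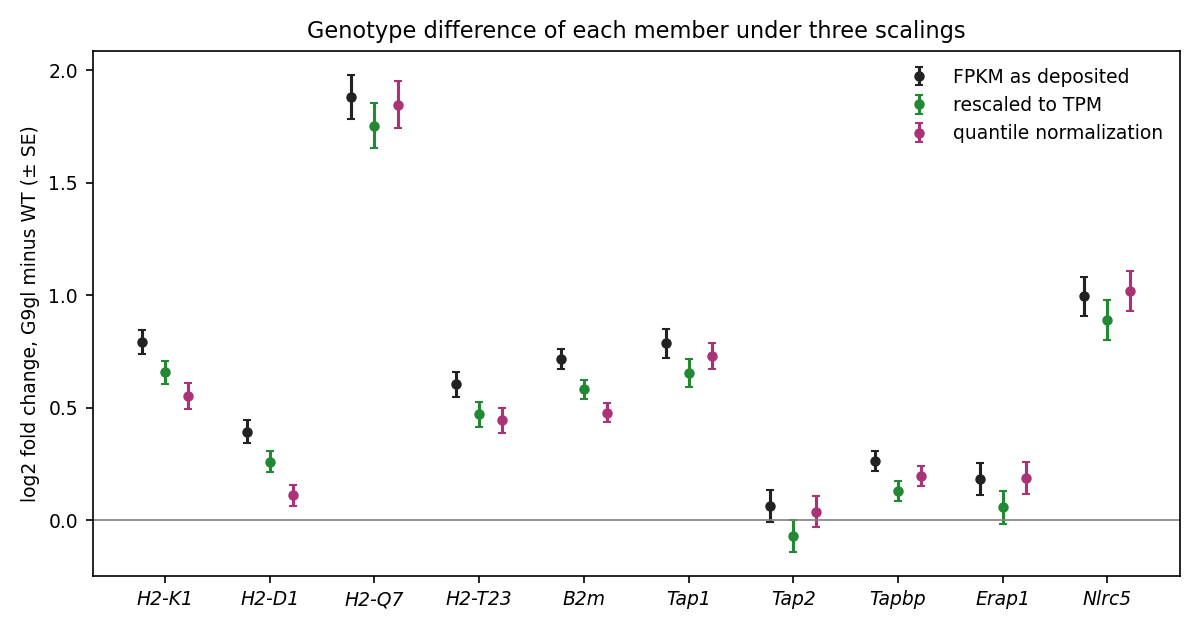
Log2 fold change of each gene (G9gl minus WT, with SE from the limma fit, n = 3 per group) for FPKM as deposited, values rescaled to TPM and quantile-normalized values. H2-Q7, Nlrc5 and Tap1 are above 0.6 in all scalings, H2-D1 drops from 0.39 to 0.11 under quantile normalization, and Tap2 lies near 0.

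The other H2 class I heavy chain genes followed the same direction. Of 22 listed, 12 passed the filter on low values. Of these 8 rose, 0 fell and 4 did not pass, with a median log2 fold change of 0.70, beside 11.8% of all tested genes called higher. H2-M3, which presents formylated peptides, rose 1.74-fold, from 107 ± 4.79 to 187 ± 4.04 FPKM (limma adjusted p 1.6e-05). H2-T9 rose 2.06-fold, from 28.7 ± 3.87 to 59.8 ± 2.28 FPKM. H2-K2, which GENCODE lists as a pseudogene, H2-L, H2-T24 and H2-Q6 did not pass. Without G9gl replicate 3, the library in which H2-Q6 stood at 53.7 FPKM, 1 gene, H2-Q6, was called lower. Summed over the 26 listed heavy chain genes, members included, the level was 5531 ± 126 FPKM in WT and 8531 ± 192 in G9gl, 1.54-fold higher.

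Class I-like molecules, whose genes mostly lie elsewhere, held no gene called higher. Of 8 listed, 5 were tested, of which 0 rose and 2 fell, beside 11.8% higher and 11.6% lower of all tested genes. With 5 genes tested, 0 called higher does not set this list apart from all genes. Cd1d1, which presents lipids to natural killer T cells, fell 1.34-fold, from 24.1 ± 0.298 to 17.9 ± 2.39 FPKM (limma adjusted p 0.012). Fcgrt, the neonatal Fc receptor gene, fell 1.31-fold (limma adjusted p 0.041). Cd1d1 was the 1 gene called lower when WT replicate 1, WT replicate 2, G9gl replicate 2 or G9gl replicate 3 was left out. Mr1, Ulbp1 and H60b did not pass, and the list's median log2 fold change was 0.048.

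Genes that make class I peptides moved in part. Of 16 tested, 6 rose, 0 fell and 10 did not pass (median 0.15), beside 11.8% of all tested genes called higher. Those that rose were subunits of the immunoproteasome, its activator PA28 and Psmb7. Besides Psmb9, the activator gene Psme1 rose 1.51-fold, from 314 ± 3.76 to 476 ± 35.8 FPKM, Psme2 1.355-fold, from 293 ± 16.6 to 398 ± 22 FPKM, and the immunoproteasome genes Psmb10 1.31-fold and Psmb8 1.22-fold. Summed, Psmb8, Psmb9 and Psmb10 went from 863 ± 9.28 to 1172 ± 67.2 FPKM, and the constitutive counterparts Psmb5, Psmb6 and Psmb7 from 400.3 ± 19.4 to 451 ± 10.1 FPKM. On the TPM scale 5 of the 16 were higher and 2, Psme3 and Npepps, lower.

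Folding partners of the loading complex were called higher at a rate near that of all genes (11.8%). Of 12 tested, 2 rose and 0 fell (median 0.14): Hspa5, the chaperone BiP, 1.31-fold (adjusted p 0.0055), and Erp29, a lumenal protein of the secretory pathway, 1.145-fold (adjusted p 0.038). Hspa5 alone was called when WT replicate 1, WT replicate 2, G9gl replicate 1 or G9gl replicate 2 was left out and on the TPM scale, and 0 were called after quantile normalization. Calr, Canx and Pdia3, which encode the lectin chaperones and oxidoreductase of the loading complex, did not pass. Calr had 265, 274 and 275 FPKM in WT against 386, 290.1 and 289 in G9gl, so that G9gl replicate 1 stood apart. Tapbpl, a tapasin relative that edits peptides, had 45.2 ± 2.23 FPKM in WT and 52.4 ± 2.84 in G9gl and did not pass.

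Of 25 tested regulators of class I genes, 4 rose, 1 fell and 20 did not pass (median 0.083), counts near or under the shares of all genes, 11.8% higher and 11.6% lower. Irf1, which binds interferon elements of class I promoters, rose 1.69-fold, from 134 ± 11.2 to 227 ± 7.85 FPKM (limma adjusted p 7.3e-05). Irf9, a transcription factor of interferon signalling, rose 1.35-fold and the interferon receptor gene Ifnar2 1.18-fold. Jak2, a kinase of interferon-gamma signalling, fell 1.96-fold, from 28.01 ± 4.62 to 13.96 ± 3.47 FPKM (adjusted p 0.0035). The X and Y box factor genes Rfx5, Rfxap, Rfxank, Nfya, Nfyb and Nfyc did not pass. On the TPM scale the calls were 3 higher and 7 lower, Rfxap and Nfyb among the latter. Without G9gl replicate 1, Jak2 and Nfyb were the 2 called lower.

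**Figure D4:**
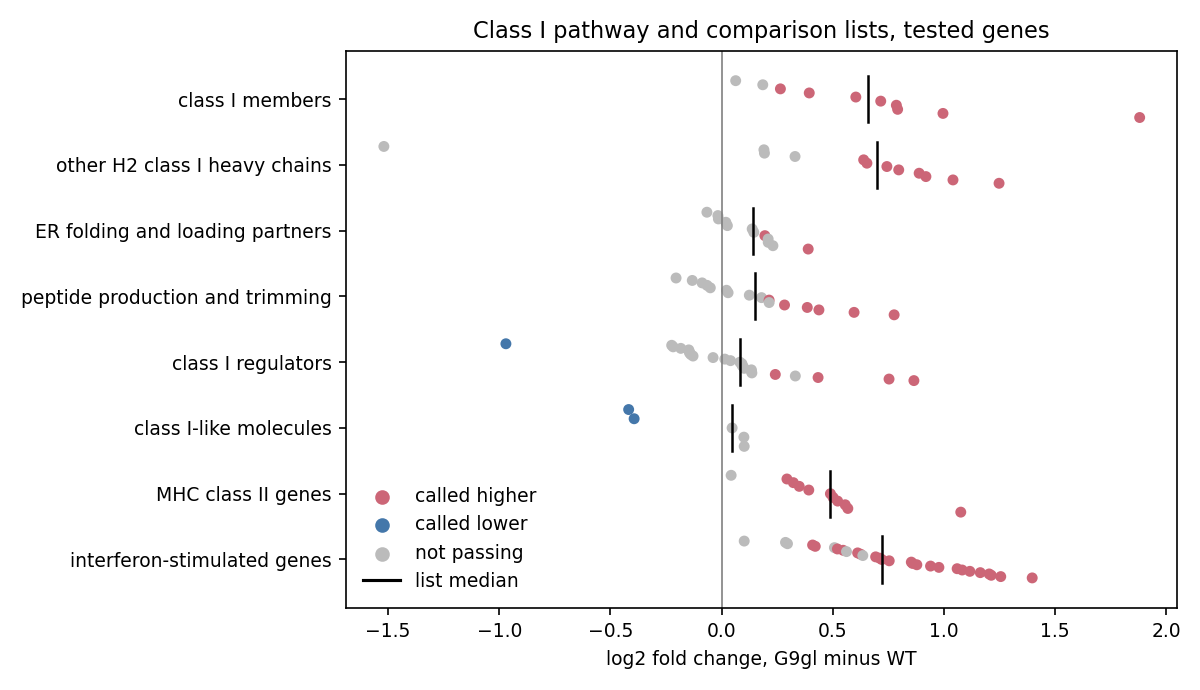
Log2 fold change (G9gl minus WT) of each tested gene of the class I members and 7 other lists, coloured by call, with list medians as bars. Points of the class I, class II and interferon-stimulated lists lie mostly right of 0, with medians of 0.66, 0.49 and 0.72, while regulators and folding partners centre near 0.

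MHC class II genes, which present peptides from endosomes, also rose. Of the 11 tested, 10 were called higher and 0 lower, beside 11.8% higher and 11.6% lower of all tested genes. H2-DMb2 did not pass, and the median log2 fold change was 0.49. H2-Oa rose 2.11-fold, H2-Eb1 1.48-fold, H2-Aa 1.42-fold, the class II transactivator gene Ciita 1.47-fold and Cd74, the invariant chain gene, 1.23-fold. H2-Aa, H2-Ab1, H2-Eb1 and Cd74 had means above 1000 FPKM. Of the tested genes at that level 69.9% were called higher. Their median log2 fold change was 0.29, the value of Cd74. After quantile normalization 8 class II genes were called. The test of a difference between class I and class II genes was not made.

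Neighbouring genes of other kinds were called at close to the rate of all genes. Between Tapbp and H2-T23 on chromosome 17 (33915899 to 36032855), 6 of 9 tested class I heavy chain genes and 8 of 9 class II genes rose. Of the other 68 tested genes in this span, which include Psmb8 and Psmb9, 7 rose (10.3%), 8 fell and 53 did not pass, with a median of -0.043. Without WT replicate 2, 4 rose and 5 fell, and without WT replicate 3, 5 fell. On the TPM scale 4 rose and 21 fell, and without a filter on low values 5 fell.

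Interferon-stimulated genes of the list rose in 23 of 29 cases, with 0 lower and 6 not passing (median 0.72). Of all tested genes 11.8% were called higher. The count of 23 moved when 1 library was left out, from 18 (without WT replicate 3) to 28 (without G9gl replicate 1). Without a filter on low values 19 of 32 were called higher. Zbp1 rose 2.32-fold, Gbp7 2.64-fold, Irgm1 1.81-fold and Igtp 1.69-fold. As lists, these genes and the class I genes differed in how the G9gl libraries were ordered, a contrast resting on 1 library. In 27 of the 29 interferon-stimulated genes G9gl replicate 1 was the lowest G9gl library (93.1%), against 4 of the 10 class I genes and 35.7% of all tested genes. The size of the gap varied among the interferon-stimulated genes. For Ifit1 the G9gl libraries held 2.74, 7.44 and 6.91 FPKM in replicate order, and for Gbp7 10.98, 12.04 and 11.78. In Zbp1 replicate 1 was not the lowest, with 83.2, 91.7 and 77.9 FPKM.

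Relative to the WT mean, the median of the interferon list was 0.43, 0.94 and 0.88 on the log2 scale in G9gl replicates 1 to 3. The median of the 10 class I genes was 0.64, 0.67 and 0.67 in the same libraries. Macrophage markers stood at 1.02, 0.82 and 0.99. Macrophages express class I genes too, and the part of their RNA in the class I result was not tested. The 12 macrophage markers together rose by 35.8 FPKM in the group means. How much class I RNA comes with that amount of marker RNA cannot be read from these libraries.

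**Figure D5:**
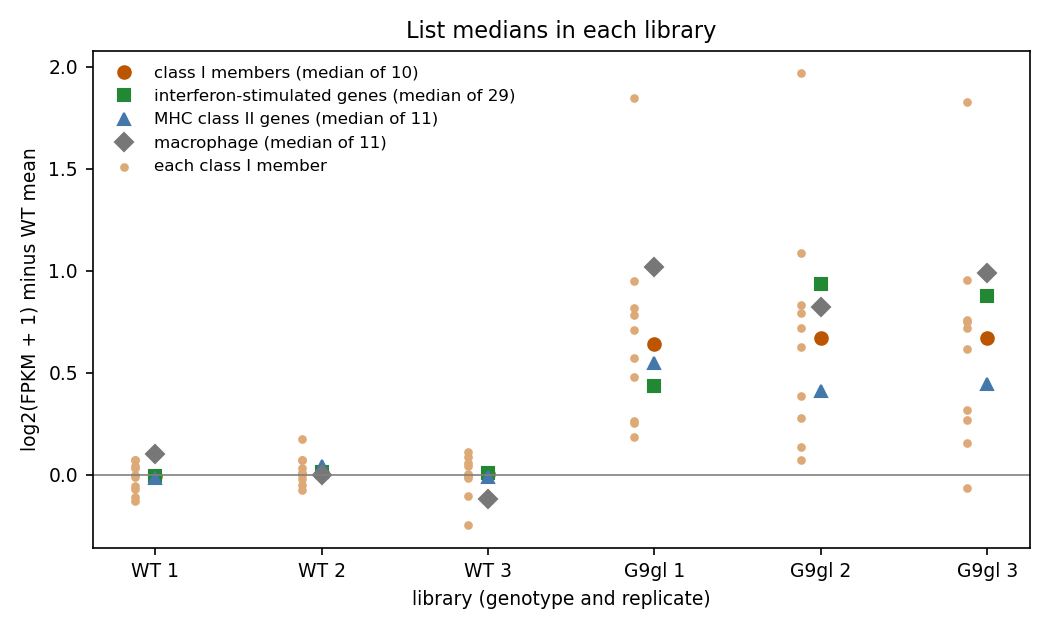
Median log2(FPKM + 1) relative to the WT mean, in each library, for the class I members, interferon-stimulated genes, class II genes and macrophage markers, with single class I members as small points. The class I medians of the G9gl libraries lie between 0.64 and 0.67, while the interferon-stimulated median is 0.43 in G9gl replicate 1 and 0.94 and 0.88 in the others.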

How the data were processed

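RNA was sequenced from 3 WT and 3 G9gl libraries, made with Trizol extraction, a SMART-Seq HT kit and a Nextera kit per the labels' protocols, which keep no strand. Each deposited file gives 1 library's FPKM by gene symbol, as the authors computed it. Cufflinks 2.2.1, TopHat2 2.0.13, SAMtools 0.1.19, Bowtie2 2.2.3 and the build mm10 are listed per the submitters' processing notes. The annotation, the filters and whether libraries were scaled to each other were not found in the labels or notes. Genes that reached 1 FPKM in 3 or more of the 6 libraries were tested with limma 3.58.1 in R 4.3.3 (lmFit, eBayes with trend) on log2(FPKM + 1), genotype as the only term, with Benjamini-Hochberg adjustment over all tested genes and calls at an adjusted p under 0.05. The fold changes are on that scale, which understates low genes. The fit was tested on simulated data. Ratios used exact two-sided permutation tests (SciPy 1.17.1). Genes were grouped by 8 lists and 8 marker lists, and those named were the 10 members and, of each other list, up to 4 called genes with the smallest p, any needed to complete a count of 5 or fewer, H2-Oa and Cd74, the 3 nearest profiles of H2-K1 and of B2m, and markers with the highest level. Others, such as Psmb8, Calr and Ifit1, were chosen after their values were seen. One gene that the rule names is not reported here. The members and lists were chosen with earlier results of these data known. The planned comparison of protein sequences was not made, and shared words of 100 bases in GENCODE vM21 transcripts were counted instead. Alternatives were other pseudocounts, filters and scalings, weights per library, the replicate number as a block and the omission of each library in turn.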

Additional observations from a re-analysis of the deposited data

How the results depend on the processing

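Of the 15 alternatives, 14 called the same 8 members higher, and quantile normalization lost H2-D1 (log2 fold change 0.11). Tap2 turned to -0.068 with values rescaled to TPM, which by construction lowers G9gl values relative to WT. Under that rescaling 763 genes were higher and 2495 lower, 1 folding partner was higher, 2 peptide genes and 7 regulators were lower, and of the other genes of the H2 region 4 were higher and 21 lower. Without a filter, which tests more genes, 1 class I-like gene was lower, 1 folding partner higher and 5 other genes of the region lower. Folding partners higher were 0 after quantile normalization, and regulators lower were 2 with library weights. The cause of these last changes was not tested. Leaving out 1 library at a time gave 793 to 1076 genes higher and 689 to 1175 lower, with 793 without G9gl replicate 2 and 689 without WT replicate 2. It gave 0 to 1 other heavy chain genes lower (0 to 1 in the H2 region), 1 to 2 class I-like genes lower, 1 to 2 folding partners higher, 1 to 2 regulators lower, and 4 to 9 higher and 5 to 9 lower among other genes of the region. The log2 ratio of Tap1 to B2m, 0.075 with all libraries, went from -0.0025 (without WT replicate 1) to 0.13, and that of Tap1 to Psmb9, 0.012 with all libraries, from -0.091 (without WT replicate 1) to 0.11, with -0.026 without G9gl replicate 3.

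Replicate numbers are shared between the groups, but the labels do not say that they pair libraries. Deviations of same-numbered libraries from their group means correlated across genes at 0.099, -0.069 and 0.021, and WT replicate 3 correlated best with G9gl replicate 2 (0.16). With the replicate number as a block 1044 genes were higher and 988 lower, and 8 members were higher, H2-K1 with a log2 fold change of 0.79.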

Other observations

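Profiles of centred log2(FPKM + 1) over the 6 libraries were compared with that of H2-K1 for 6408 tested genes with a mean of at least 10 FPKM, leaving out the other members. Irf1 and Lpxn, a focal adhesion adaptor gene, were among the 3 nearest, with root mean square differences of 0.044 and 0.046. Lpxn had 123 ± 6.95 FPKM in WT and 208 ± 7.89 in G9gl. Nearest to B2m were Blvrb, a biliverdin reductase gene (0.0401), Sh2d2a, a T cell adaptor gene (0.046), and Ifi27, an interferon-induced gene (0.0502). Sh2d2a had 11.4, 10.97 and 10.9 FPKM in WT and 19.7, 20.1 and 20.3 in G9gl.

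The X2 core followed by a Y box at 24 or 25 bases was also in 18 promoter windows of genes outside the 10 members, of which 12 genes were tested. Of these, 2 were called higher and 0 lower, beside 11.8% higher and 11.6% lower of all tested genes. With 12 genes tested, these counts do not set the genes with the pair apart from all genes. H2-M3 rose 1.74-fold, and Ghitm, a mitochondrial membrane protein gene, had 83.97 ± 2.17 FPKM in WT and 94.7 ± 2.84 in G9gl (limma adjusted p 0.047). The windows of Hspa14 and Nfe2l1 held the pair as well, and those genes had log2 fold changes of 0.0094 and 0.045 and did not pass.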
